A study of Mus musculus with 23 samples.

Results

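The axon guidance genes measured here were the probe sets whose annotated symbol places them among the semaphorins, plexins, neuropilins, Eph receptors, ephrins, Robo receptors, Slits, netrins or Unc5 receptors. They were chosen by symbol alone, and 67 of the 22203 probe sets on the array belonged to them, each with a symbol of its own. Of these, 16 lay above background in at least 1 of the 6 groups of samples and 10 in all 6 groups. Background in a group is the 95th percentile of the mean log2 signals of 1464 probe sets for odour, pheromone and taste receptors, and it ran from 7.72 to 8.11. The symbol rule also took in Unc50, a Golgi membrane protein gene unrelated to the netrin receptors, and Unc5cl, a gene of a death domain protein that resembles them. Nrp1, Sema4a and Ephb2 had no probe set under these symbols and were not analysed here.

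The samples were 23 preparations of sorted microglia, the resident macrophages of the brain, taken from cortex and hippocampus by their CD45 and CD11b. The controls were C57BL6 wild-type mice (WT), with 4 samples aged 3 months and 4 aged 12 months. APPswlnd mice (APP), which carry a mutated human amyloid precursor protein gene, gave 3 samples at 3 months and 4 at 12 months. P301S (PS19) mice (TAU), which carry a mutated human tau gene, gave 4 samples at 3 months and 4 that are aged 9 months by the age label but 12 months by title; 9 months is used here. The older APP and TAU samples are active microglia, gated on the receptor Clec7a, and no such gate is named for any WT or young sample. Strain, pathology and gate therefore cannot be told apart in the older transgenic groups, nor, for TAU, age from these. The promoters that drive the transgenes, the sex of the mice and the number of animals per sample are not given in the sources used here. The sample titles call the samples biological replicates, and p-values measure the spread between these samples, however many animals each holds. All 11 measured microglial markers, among them P2ry12, Tmem119, Csf1r and Cx3cr1, were above background in every group. They moved with the gated groups: 6 were called lower and 1, Trem2, higher in each, with Tmem119 at -3.31 in APP (adjusted p = 1.88e-06) and -2.89 in TAU (adjusted p = 1.82e-05) on the log2 scale against WT at 12 months. Their mean was 15.36 to 15.74 in that WT group, 14.65 to 14.90 in gated APP and 14.76 to 15.00 in gated TAU, lower in all gated samples, and its part in the guidance results was not tested.

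Guidance molecules were named for steering growing axons, and they also control adhesion, shape and movement of immune and vascular cells. Semaphorins are secreted or membrane-bound ligands that signal through plexins, which collapse the actin skeleton by acting on small GTPases. Most of the secreted class need a neuropilin as co-receptor. Ephrins are membrane-bound ligands of the Eph receptor tyrosine kinases and can signal back into the cell that carries them. Slits bind Robo receptors, and netrins bind DCC and the Unc5 receptors. In myeloid cells plexin-A1, the receptor of semaphorin 6D, is known to work with Trem2 and its adaptor Dap12.

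The promoters of 4 genes on which the results below turn are shown for reference, 3 of genes that were lower in the gated cells and that of Nrp2, which was higher in gated APP cells. They are RefSeq promoters of GRCm38.p6, from 250 bases before to 50 bases after a start site, written 5′ to 3′, with the most upstream start where the table held more than 1. The table matched 58 of the 67 symbols, and Plxna4 was not among them.
Epha2, chr4:141300971-141301270, plus strand: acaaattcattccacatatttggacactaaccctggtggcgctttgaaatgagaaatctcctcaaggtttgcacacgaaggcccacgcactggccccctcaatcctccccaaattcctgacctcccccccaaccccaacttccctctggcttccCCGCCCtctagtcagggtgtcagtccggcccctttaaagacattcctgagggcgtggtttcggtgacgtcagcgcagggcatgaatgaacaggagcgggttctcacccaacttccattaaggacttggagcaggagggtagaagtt
Sema6d, chr2:124089719-124090018, plus strand: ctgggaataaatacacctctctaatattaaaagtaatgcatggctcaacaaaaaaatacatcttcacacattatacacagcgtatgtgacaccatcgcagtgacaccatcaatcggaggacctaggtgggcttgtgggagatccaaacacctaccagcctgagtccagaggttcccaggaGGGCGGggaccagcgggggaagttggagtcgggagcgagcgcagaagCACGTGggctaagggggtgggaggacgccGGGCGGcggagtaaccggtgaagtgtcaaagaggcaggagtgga
Sema4b, chr7:80186620-80186919, plus strand: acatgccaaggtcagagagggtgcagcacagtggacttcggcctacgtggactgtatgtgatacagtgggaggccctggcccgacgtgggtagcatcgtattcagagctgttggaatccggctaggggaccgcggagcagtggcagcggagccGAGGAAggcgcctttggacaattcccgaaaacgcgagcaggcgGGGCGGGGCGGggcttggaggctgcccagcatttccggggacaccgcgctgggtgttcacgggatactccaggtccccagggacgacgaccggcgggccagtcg
Nrp2, chr1:62703067-62703366, plus strand: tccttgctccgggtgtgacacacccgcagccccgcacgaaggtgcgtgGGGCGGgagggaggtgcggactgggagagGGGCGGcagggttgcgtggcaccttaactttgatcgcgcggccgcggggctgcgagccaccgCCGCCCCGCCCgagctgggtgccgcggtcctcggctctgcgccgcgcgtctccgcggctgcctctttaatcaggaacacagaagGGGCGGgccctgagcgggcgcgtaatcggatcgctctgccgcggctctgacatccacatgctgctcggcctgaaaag
Capitals mark every match, on either strand, to the GC box GGGCGG, the core GAGGAA bound by the myeloid factor PU.1, or the E-box CACGTG. The 2 GC boxes of Sema4b overlap each other, as do 2 of the 5 of Nrp2. Sema4b alone of the 4 held a GAGGAA, and Sema6d alone a CACGTG. Over the 71 promoters of guidance genes, 71.8% held a GC box, against 35.7% of all 32851 promoters of that length. GAGGAA stood in 31.0% against 28.3%, and CACGTG in 7.04% against 7.15%. These matches are a description of the letters in these windows and carry no test.

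Microglia gave a signal for only some of the families. Among the 19 semaphorins 6 were above background in at least 1 group, namely Sema3c, Sema4b, Sema4c, Sema4f, Sema4g and Sema6d. Among the 9 plexins there were 4, Plxna4, Plxnb2, Plxnb3 and Plxnc1. The neuropilin Nrp2, the Eph receptors Epha1 and Epha2 (of 13) and the ephrins Efnb1 and Efnb2 (of 8) made up the rest, with Unc50. None of the 4 netrins, 4 Robo receptors or 3 Slits was above background in any group. The 51 guidance probe sets at or below background in all groups had group means between 3.78 and 7.85. Plxnb3, just inside the background limit, exceeded it by 0.005 in young WT and in no other group, and Sema3d, just outside, stayed 0.047 below it. By group, 16 guidance genes were above background in young WT, 15 in each of young APP, young TAU and WT at 12 months, 11 in gated APP and 10 in gated TAU.

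**Figure D1:**
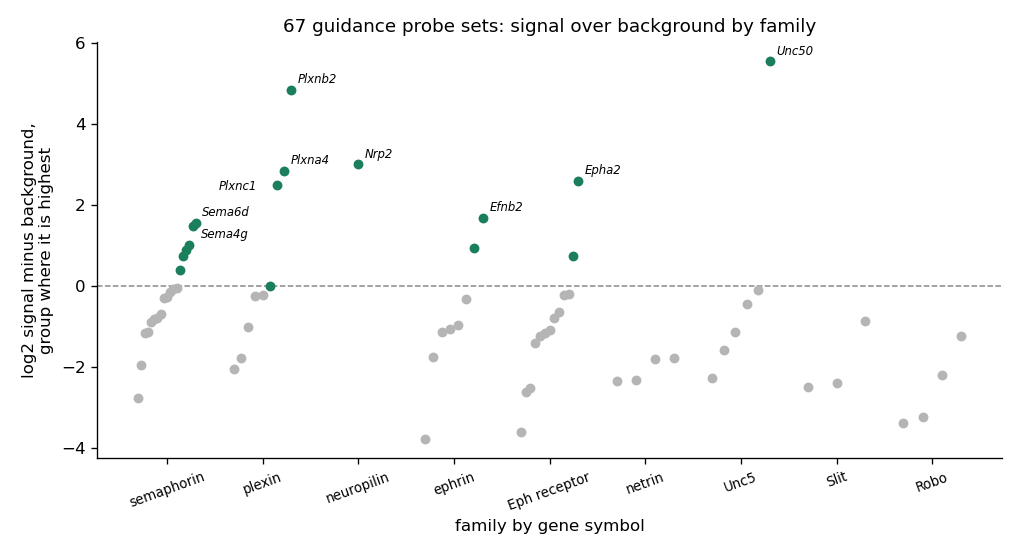
For each of the 67 guidance probe sets, the log2 signal minus background in the group where it is highest, by family; green points are above background in at least 1 group and grey points in none, and genes more than 1.2 above it are named. Netrins, Slits and Robo receptors all lie below the dashed line at 0; heights of different probe sets are not on a common scale of abundance.

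At 3 months, when the labels call the transgenic mice free of pathology, no guidance gene was called different from WT in either strain. Levels were compared with limma, fitted to all 23 samples and all 22203 probe sets, and "called" means an adjusted p (Benjamini-Hochberg) under 0.05. In each of the young comparisons 0% of all probe sets were called, and the share with an unadjusted p under 0.05 was not counted. An unadjusted p under 0.05 was reached by 2 guidance genes in APP, Epha5 and Unc5cl, both at background. It was reached by 2 in TAU, Unc5cl and Plxnc1, the receptor of semaphorin 7A. Plxnc1 was at 9.66, 8.53, 9.55 and 9.64 on the log2 scale in the young WT samples and at 9.77, 9.59, 9.85 and 10.46 in young TAU. The groups overlapped, with WT replicate 2 the lowest of all, and the difference of 0.57 ± 0.26 (log2 fold change, SE) was not called (adjusted p = 0.998) and was 0.30 without that sample. The mean of 3 Y-linked genes, which follows sex, was 6.98 to 7.46 in young WT and 4.14 to 4.62 in young APP, without overlap. In young TAU it was 6.88 in replicate 1 and at most 4.49 in the other 3 samples. Sex and genotype therefore cannot be told apart in the young APP comparison, differ together in most samples of the young TAU comparison, and both enter the tests of change with age. Over the 67 genes, differences from WT ran from -0.54 to 0.59 in APP and from -0.35 to 0.57 in TAU.

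No guidance gene was called between WT microglia at 12 and at 3 months. In this comparison 0.036% of all probe sets were called, at the adjusted threshold. An unadjusted p under 0.05 was reached by 5 of the 67 guidance genes, and the share of all probe sets reaching it was not counted. Plxnc1 was at 10.05, 10.53, 9.48 and 10.34 at 12 months, 0.76 ± 0.26 above its level at 3 months (log2, SE; adjusted p = 0.446). Sema4g, a class 4 membrane semaphorin, was at 8.91, 9.00, 10.08 and 8.82 at 3 months and at 8.24, 7.84, 8.94 and 8.61 at 12 months, a difference of -0.80 ± 0.32 (adjusted p = 0.502). Sema6d was at -0.61 ± 0.29 (adjusted p = 0.547), and the other 2 were Plxna2 and Sema3g, both at background. For both Plxnc1 and Sema4g the ranges at the 2 ages overlapped. Each rested in part on 1 young sample: Plxnc1 was 0.48 without young WT replicate 2, the low sample (adjusted p = 0.767), and Sema4g was -0.50 without young WT replicate 3, the high sample (adjusted p = 0.779).

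Within WT at 12 months, replicates 2 and 4 stood apart from 1 and 3 in several guidance genes. They had the 2 lowest values of Epha2 (9.41 and 8.83, against 10 and 10.49), Plxna4 (9.38 and 9.49, against 10.15 and 10.75), Nrp2 (8.87 and 8.75, against 9.98 and 9.84) and Plxnb2 (11.86 and 11.25, against 12.72 and 13.12). These arrays also had the highest median signals of their group, 7.13 and 7.11 against 7 and 6.87, and the highest median of the receptor probe sets used as background, 6.32 each against 5.93 and 5.62. The aged comparisons all rest on this group, so the values without these 2 samples are given below where they change a call or move the difference clearly. That these 4 genes separate the replicates in the same way is a description, chosen after their values were seen. Unc50 also had its 2 lowest values in replicates 2 and 4. Plxnc1 had its 2 highest there (10.53 and 10.34, against 10.05 and 9.48), as did Plxna2 and Plxnd1, both at background. The share of all probe sets that separate these replicates was not counted.

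In gated aged microglia the receptors Epha2 and Plxna4, the membrane ligands Sema6d and Sema4b and the ephrin Efnb1 were lower than in WT at 12 months, in both APP and TAU. Fewer cells of a type and less RNA per cell cannot be told apart in such bulk samples. In gated APP 8 of the 67 guidance genes were called, 5 lower and 3 higher, where 3.48% of all probe sets were called lower and 5.6% higher. In gated TAU 6 were called, 5 lower and 1 higher, where 3.67% of all probe sets were called lower and 5.09% higher. The members' shares were 7.46% lower in each, 4.48% higher in APP and 1.49% higher in TAU. The median over the 67 genes was -0.05 in APP and -0.06 in TAU, and over all probe sets -0.06 and -0.05. Among the probe sets above background in at least 1 group, 6.83% were called lower in APP and 7.37% in TAU. The members' share of 7.46% is over all 67 and is not on this base. All 5 genes called lower were among the 16 guidance genes above background in at least 1 group. Of these 5, Epha2, Sema6d and Efnb1 were above background in no gated group, and no test was made on this base. The APP and TAU comparisons share the 4 WT samples, and their values are given side by side without a test of their likeness.

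Epha2, a receptor of the ephrin-A ligands, showed the largest fall of the 67 genes. It was at 10, 9.41, 10.49 and 8.83 (log2 signal) in the 4 WT samples at 12 months. It was at 7.02, 7.21, 7.39 and 6.53 in gated APP, and at 7.59, 7.24, 7.42 and 7.66 in gated TAU. No gated sample reached the lowest WT sample, and both gated means lay below background. Because the lower signal is at background, the fall is given as a limit: at least 3.79-fold in APP (log2 fold change -2.65 ± 0.35, SE; limma adjusted p = 1.1e-05) and at least 3.56-fold in TAU (-2.21 ± 0.35, adjusted p = 0.000165). In the young groups Epha2 was at 10.18, 10.56, 10.21 and 10.33 in WT, 9.18, 11.18 and 10.14 in APP, and 10.48, 10.63, 10.14 and 9.56 in TAU, all above every gated sample. The change with age exceeded that of WT in both strains, by -2.49 ± 0.51 in APP (adjusted p = 0.00462) and -2.09 ± 0.49 in TAU (adjusted p = 0.0162). In these tests of the difference in change with age, 0.977% of all probe sets were called lower for APP and 1.15% for TAU. Such tests set gated older transgenic cells against young cells without a gate, so age and gate cannot be told apart in them. For TAU they also set 3 to 9 months against 3 to 12 months in WT. Without WT replicates 2 and 4 the falls were -3.21 in APP (adjusted p = 8.8e-06) and -2.77 in TAU (adjusted p = 8.53e-05).

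Epha1, the other Eph receptor above background and a gene at an Alzheimer risk locus in people, was not called. It was at 8.69, 8.99, 7.85 and 8.59 in WT at 12 months, 7.53, 8.01, 7.39 and 8.32 in gated APP and 8.08, 7.70, 8.20 and 8.39 in gated TAU. WT replicate 3 lay among the gated samples, and the differences were -0.72 ± 0.24 in APP (adjusted p = 0.0654) and -0.44 ± 0.24 in TAU (adjusted p = 0.299). Without WT 12 months replicate 3 the APP difference was called at -0.94 (adjusted p = 0.00815), and without gated APP replicate 4 at -0.89 (adjusted p = 0.0247). It was smaller without WT replicates 2 and 4, at -0.46 in APP (adjusted p = 0.474) and -0.18 in TAU (adjusted p = 0.815).

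Plxna4, a plexin that transmits signals of class 3 semaphorins with a neuropilin and of class 6 semaphorins directly, was the plexin with the largest fall. It was at 10.15, 9.38, 10.75 and 9.49 in WT at 12 months, at 8.29, 8.22, 7.70 and 7.86 in gated APP, and at 8.77, 7.51, 8.73 and 8.04 in gated TAU. Every gated sample lay below every WT sample, and both gated means were still above background. The fall was 3.80-fold in APP (-1.93 ± 0.34, adjusted p = 0.000429) and 3.20-fold in TAU (-1.68 ± 0.34, adjusted p = 0.00226). The falls were -2.43 in APP (adjusted p = 0.000303) and -2.19 in TAU (adjusted p = 0.00126) without WT replicates 2 and 4. Young samples ran from 9.96 to 11.42. The change with age differed from that of WT in APP (-2.10 ± 0.50, adjusted p = 0.0155), and in TAU the difference was -1.67 ± 0.48 and missed the threshold (adjusted p = 0.0542). Without young APP replicate 2, which held the highest value of all at 11.42, the APP value was -1.77 (adjusted p = 0.0707). Plxna4 in TAU crossed the threshold without young WT replicate 3 (-1.83), young APP replicate 1 or 2 (-1.67 each), young TAU replicate 1 (-1.87), WT 12 months replicate 2 (-1.86) or gated TAU replicate 1 (-1.84). The same TAU value was called at -2.175 without WT 12 months replicates 2 and 4 (adjusted p = 0.0229). Among other settings, quantile normalization (adjusted p = 0.0463) and the trend and robust options of limma (adjusted p = 0.0477) also called it.

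The transmembrane semaphorin Sema6d, a ligand of plexin-A1, also fell to background in both gated groups. It was at 8.28, 8.54, 9.20 and 8.43 in WT at 12 months, at 6.18, 7.23, 7.36 and 7.85 in gated APP and at 7.52, 7.35, 7.67 and 7.69 in gated TAU. The gated samples lay below all WT samples, and gated APP replicate 1 was the lowest of the 23. The fall was at least 1.78-fold in APP (-1.46 ± 0.29, adjusted p = 0.00131) and at least 1.70-fold in TAU (-1.06 ± 0.29, adjusted p = 0.0216). The fall in APP was -1.59 without WT replicates 2 and 4 (adjusted p = 0.0085). In TAU the call was lost without WT replicate 3 (-0.86, adjusted p = 0.061), without gated TAU replicate 1 (-1.04, adjusted p = 0.0524), without gated TAU replicate 2 (-0.99, adjusted p = 0.0621), and without WT replicates 2 and 4 (-1.18, adjusted p = 0.0599). The change with age differed from that of WT in APP (-1.73 ± 0.42, adjusted p = 0.018), but not without young APP replicate 1 (-1.54, adjusted p = 0.0583).

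Sema4b, a membrane semaphorin of class 4, fell by less and with more overlap. Its signals were 8.68, 9.08, 8.15 and 8.49 in WT at 12 months, 7.62, 8.08, 7.5 and 7.92 in gated APP, and 7.48, 7.67, 7.46 and 8.23 in gated TAU. The APP samples lay below all WT samples, while TAU replicate 4 exceeded WT replicate 3. The fall was 1.77-fold in APP (-0.82 ± 0.20, adjusted p = 0.00987) and at least 1.57-fold in TAU (-0.89 ± 0.20, adjusted p = 0.00616). The gated APP mean of 7.78 lay only just above the background of that group, 7.76. Without WT replicate 2, the highest WT sample, the APP value was -0.66 (adjusted p = 0.0538). Without WT replicates 2 and 4 neither was called (-0.64, adjusted p = 0.14 in APP and -0.71, adjusted p = 0.0888 in TAU). The change with age of Sema4b differed from that of WT in TAU (-1.13 ± 0.29, adjusted p = 0.0258). That call was lost in turn without WT 3 months replicate 2 (-1.04) or 3 (-1.08), young TAU replicate 4 (-1.11), WT 12 months replicate 1 (-1.11) or 2 (-0.97), or gated TAU replicate 1 (-1.06) or 3 (-1.05), at adjusted p from 0.0504 to 0.0647. Leaving out WT 12 months replicates 2 and 4 together also lost this call (-0.95, adjusted p = 0.126).

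The ephrin-B ligands lay near background in aged WT and below it in the gated groups. Efnb1, an ephrin that binds EphB receptors, was at 8.12, 7.87, 8.57 and 8.23 in WT at 12 months, 6.70, 7.44, 7.48 and 7.44 in gated APP and 8.04, 6.69, 7.14 and 7.18 in gated TAU. The APP samples did not overlap WT, and TAU replicate 1 did. The fall was at least 1.35-fold in APP (-0.93 ± 0.27, adjusted p = 0.0326) and at least 1.23-fold in TAU (-0.94 ± 0.27, adjusted p = 0.0342). In APP the Efnb1 call was lost without WT replicate 1 (-0.96), 3 (-0.81) or 4 (-0.92) or gated APP replicate 1 (-0.74), at adjusted p from 0.0584 to 0.132. In TAU it was lost without WT replicate 1 (-0.96), 3 (-0.81) or 4 (-0.92) or gated TAU replicate 2 (-0.74), 3 (-0.89) or 4 (-0.91), at adjusted p from 0.0615 to 0.127. Neither Efnb1 difference was called without WT replicates 2 and 4, at -1.08 in each (adjusted p = 0.0708 in APP and adjusted p = 0.07 in TAU).

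Efnb2, the other B-type ephrin above background and a known marker of arterial endothelium, was not called. It was at 8.05, 8.51, 8.59 and 7.86 in WT at 12 months, 7.51, 7.46, 6.94 and 7.20 in gated APP and 7.15, 6.80, 7.69 and 7.56 in gated TAU. No gated sample overlapped WT, and the differences were -0.98 ± 0.45 in APP (adjusted p = 0.212) and -0.95 ± 0.45 in TAU (adjusted p = 0.219). Groups without overlap in the lower direction made up 4.83% of all probe sets in APP and 5.55% in TAU, and held 7 and 5 guidance genes. The spread of Efnb2 was widened by young APP replicate 2 at 11.57, where the other young APP samples were at 8.66 and 8.64. Without that sample both differences were called, at adjusted p = 0.0299 in APP and adjusted p = 0.0363 in TAU. They were -1.04 (adjusted p = 0.391) and -1.02 (adjusted p = 0.368) without WT replicates 2 and 4.

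**Figure D2:**
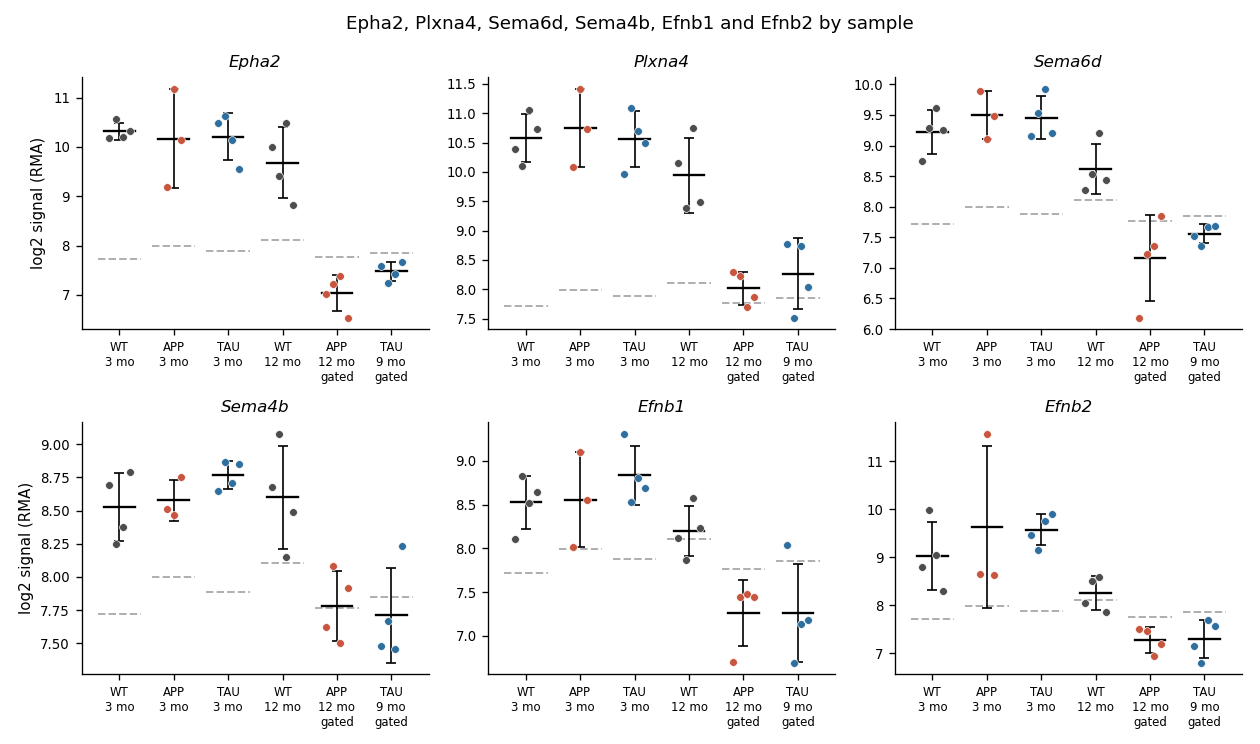
Log2 signals of Epha2, Plxna4, Sema6d, Sema4b, Efnb1 and Efnb2 in each of the 23 samples (points) by group, with the group mean and SD (black, n = 4, or 3 in young APP) and the background of the group (dashed). The 4 gated APP samples of Epha2 lie between 6.53 and 7.39 and the gated TAU samples between 7.24 and 7.66, all below the lowest ungated sample at 8.83.

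Nrp2, the co-receptor of class 3 semaphorins and of the vascular growth factor VEGF-C, went the other way. It was at 9.98, 8.87, 9.84 and 8.75 in WT at 12 months, at 10.65, 11.20, 10.81 and 10.45 in gated APP, and at 9.84, 10.41, 11.24 and 10.16 in gated TAU. All APP samples lay above WT, and TAU replicate 1 did not. It rose 2.67-fold in APP (1.42 ± 0.37, adjusted p = 0.0148), and the TAU difference of 1.05 ± 0.37 was not called (adjusted p = 0.0815). The rise in APP rested on the WT samples that stood apart: it was 1.25 without WT replicate 2 (adjusted p = 0.0617), 1.21 without WT replicate 4 (adjusted p = 0.0658) and 0.87 without both (adjusted p = 0.309). In TAU the difference was called without WT replicate 3 (1.21, adjusted p = 0.0492) or without young APP replicate 2 (1.05, adjusted p = 0.0289), and it was 0.50 without WT replicates 2 and 4 (adjusted p = 0.598). Young WT samples were at 10.58, 9.62, 10 and 10.07, and the change with age did not differ by test from that of WT (1.07 ± 0.54, adjusted p = 0.365 in APP).

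The plexins Plxna2 and Plxnd1 were called higher although their group means stayed at or below background, so no fold is given for them. Plxna2, a receptor of class 6 semaphorins, was at 6.31, 6.82, 6.55 and 6.61 in WT at 12 months, at 7.55, 7.57, 7.91 and 7.04 in gated APP, and at 6.23, 6.09, 5.91 and 6.55 in gated TAU. Every gated APP sample exceeded all 19 other samples. The difference from WT was 0.95 ± 0.21 in APP (log2, SE; adjusted p = 0.00409) and -0.38 ± 0.21 in TAU (adjusted p = 0.306). Plxna2 was the 1 guidance gene called between the gated groups, 1.32 ± 0.21 higher in APP than in TAU (adjusted p = 0.000842), where 0.626% of all probe sets were called higher and 0.302% lower. Without WT replicates 2 and 4 it was 1.09 above WT in APP (adjusted p = 0.0127).

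Plxnd1, the receptor of semaphorin 3E, was at 6.47, 6.83, 6.68 and 6.70 in WT at 12 months, at 8.28, 7.21, 7.45 and 7.22 in gated APP and at 7.72, 6.91, 7.49 and 7.95 in gated TAU. Both gated groups lay above all 4 WT samples. The differences were 0.87 ± 0.23 in APP (adjusted p = 0.0177) and 0.85 ± 0.23 in TAU (adjusted p = 0.0235). In APP the call was lost without WT replicate 1 (0.80, adjusted p = 0.0593) or gated APP replicate 1 (0.62, adjusted p = 0.0864). In TAU it was lost without WT replicate 1 (0.78, adjusted p = 0.0724) or gated TAU replicate 1 (0.78, adjusted p = 0.0722) or 4 (0.70, adjusted p = 0.0781). Without WT replicates 2 and 4 the adjusted p was 0.0587 in APP and 0.0665 in TAU.

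**Figure D3:**
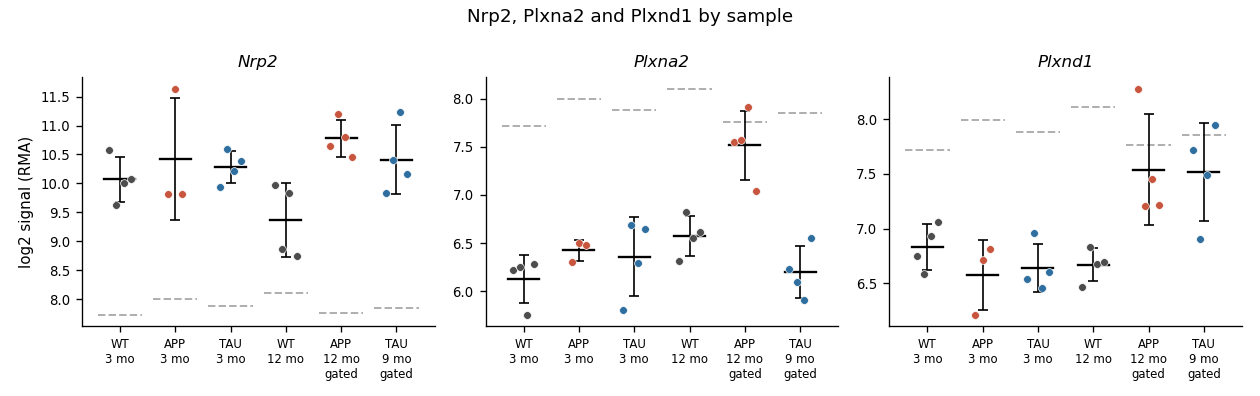
Log2 signals of Nrp2, Plxna2 and Plxnd1 in each of the 23 samples (points) by group, with the group mean and SD (black) and the background of the group (dashed). For Plxna2 the gated APP samples, at 7.04 to 7.91, lie above all others, and the gated TAU samples do not.

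The remaining guidance genes above background were not called. Plxnb2, the receptor of semaphorin 4C, was at 12.72, 11.86, 13.12 and 11.25 in WT at 12 months, 11.31, 12.08, 11.62 and 11.76 in gated APP and 12.14, 11.09, 12.20 and 11.91 in gated TAU. The groups overlapped, with gated TAU replicate 2 the lowest sample, and the 95% confidence interval of the difference ran from -1.33 to 0.24 in APP and from -1.19 to 0.38 in TAU. Without WT replicates 2 and 4 the Plxnb2 difference moved from -0.55 to -1.23 in APP (adjusted p = 0.078) and from -0.40 to -1.09 in TAU (adjusted p = 0.125), not called in either. For its ligand Sema4c, at 7.89 to 8.51 in WT, 8.32 to 8.84 in APP and 8.22 to 8.62 in TAU, the intervals ran from -0.10 to 0.62 and from -0.21 to 0.51. For Plxnc1 they ran from -0.42 to 0.64 and from -0.28 to 0.78.

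Sema4f, a membrane semaphorin known from synapses, was at 8.21, 8.39, 8.29 and 8.10 in WT at 12 months and at 7.80, 7.74, 7.70 and 8.11 in gated APP. The APP samples lay lower except for replicate 4, which just exceeded WT replicate 4, and the difference of -0.41 ± 0.16 was not called (adjusted p = 0.121). In TAU it was -0.25 ± 0.16 (adjusted p = 0.381). For the secreted semaphorin Sema3c, the interval ran from -0.45 to 0.45 in APP and from -0.47 to 0.42 in TAU. For Sema4g it ran from -0.46 to 0.87 and from -1.03 to 0.30, for Plxnb3 from -0.35 to 0.57 and from -0.70 to 0.22, and for Unc50 from -0.29 to 0.70 and from -0.61 to 0.37.

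**Figure D4:**
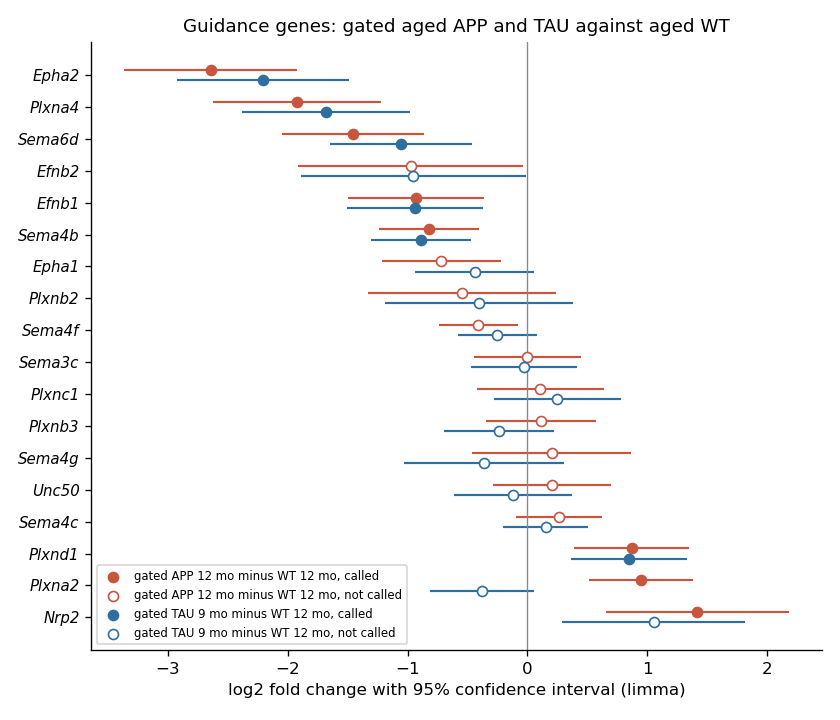
Log2 fold change with 95% confidence interval (limma) of the 16 guidance genes above background and of Plxna2 and Plxnd1, in gated APP (red) and gated TAU (blue) against WT at 12 months; filled points were called at an adjusted p under 0.05. Epha2, Plxna4, Sema6d, Efnb1 and Sema4b are filled in both on the lower side, and the Plxna2 intervals of the 2 strains do not overlap.

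Between the gated groups themselves the lower genes were not told apart. Epha2 differed by -0.44 (95% confidence interval -1.16 to 0.28, APP minus TAU), Plxna4 by -0.25 (-0.95 to 0.46), Sema6d by -0.40 (-0.995 to 0.19), Sema4b by 0.07 (-0.35 to 0.49), Efnb1 by 0.00 (-0.57 to 0.57), Nrp2 by 0.37 (-0.40 to 1.13) and Plxnd1 by 0.02 (-0.46 to 0.51). The 51 genes at background had differences from aged WT between -0.62 and 0.95 in APP and between -0.59 and 0.85 in TAU, with Plxna2 and Plxnd1 at the upper ends.

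Genes that act with or below guidance receptors were followed in 4 lists that hold no guidance gene. Of 43 measured genes of semaphorin and plexin signalling, 6 were called higher and 1 lower in gated APP, where 5.6% of all probe sets were higher and 3.48% lower. In gated TAU 5 were called higher and none lower, where the shares of all probe sets were 5.09% and 3.67%. The median of the list was 0.05 in APP and -0.01 in TAU, against -0.06 and -0.05 over all probe sets. Trem2, the lipid receptor that works with plexin-A1, was at 14.64, 14.48, 15.18 and 14.64 in WT at 12 months, at 16.16, 16.33, 16.69 and 16.24 in gated APP and at 15.77, 15.60, 15.58 and 15.60 in gated TAU. Both gated groups lay above WT, by 1.62 ± 0.22 in APP (adjusted p = 1.41e-05) and by 0.90 ± 0.22 in TAU (adjusted p = 0.00933). Vegfa, a growth factor that competes with class 3 semaphorins for neuropilins, rose 5.37-fold in APP (adjusted p = 8.41e-07) and 3.06-fold in TAU (adjusted p = 0.000283). Cd72, an immune receptor of semaphorin 4D, rose from background at least 1.24-fold in APP (adjusted p = 0.000544) and at least 1.72-fold in TAU (adjusted p = 3.94e-05). Plxna1 itself was at background in all groups.

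Flt1, a receptor of VEGF, was at 7.06, 7.10, 7.75 and 7.39 in WT at 12 months, 8.63, 10.34, 9.95 and 8.71 in gated APP and 7.58, 7.72, 8.31 and 7.78 in gated TAU. Gated APP lay above the other 2 groups, at least 2.46-fold over WT (adjusted p = 5.18e-05) and at least 2.72-fold over TAU (adjusted p = 0.00813). Flt1 is also an endothelial marker and 1 of the 15 endothelial and pericyte markers measured. The mean of all 15 was 6.52, 7.89, 7.30 and 6.76 in gated APP, so that replicates 2 and 3 were highest in both. The same mean was 6.82, 6.77, 7.18 and 6.77 in WT at 12 months and at most 6.68 in gated TAU, and its part in the Flt1 and Nrp2 results was not tested. Of the 15, 9 were at background in every group, among them Cldn5, Cdh5, Tek and Tie1, which define endothelium. The other 6, Kdr, Ly6c1, Vtn, Pecam1, Slco1a4 and Flt1, were above it in at least 1 group. Against WT, gated APP was 1.16 higher in Cldn5, not called (adjusted p = 0.238), and Pecam1 fell by 1.17 (log2, adjusted p = 0.0247).

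Of 34 measured genes of Eph and ephrin signalling, none was called higher, 3 were called lower in gated APP and 4 in gated TAU, beside 3.48% and 3.67% of all probe sets. The shares of all probe sets called higher were 5.6% in APP and 5.09% in TAU. The list medians were -0.20 and -0.19, against -0.06 and -0.05 over all probe sets. Abl1, a tyrosine kinase that Eph receptors act on, fell 3.32-fold in APP (8.18 ± 0.18 against 9.91 ± 0.54, SD, n = 4 each; adjusted p = 0.00225) and 2.48-fold in TAU (8.60 ± 0.37, adjusted p = 0.0233). The exchange factor gene Itsn2 was at -0.75 in APP (adjusted p = 0.00909) and -0.79 in TAU (adjusted p = 0.00711). Adam10, the protease that sheds ephrins, was at -0.75 in APP (adjusted p = 0.023), and Rgs3, a regulator that binds B-type ephrins, at -0.96 in TAU (adjusted p = 0.0322).

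Of 18 measured genes of Slit and Robo signalling, 2 were called lower in each gated group and 1 higher in TAU, beside the same 3.48% and 3.67% lower and 5.09% higher over all probe sets. The list medians were 0.06 in APP and 0.20 in TAU, against -0.06 and -0.05. Srgap2, a GTPase-activating protein that binds Robo receptors, was at 13.87 ± 0.20 in gated APP, 14.44 ± 0.14 in gated TAU and 15.67 ± 0.23 in WT (SD, n = 4 each), a fall of 3.48-fold in APP (adjusted p = 6.45e-07) and 2.34-fold in TAU (adjusted p = 0.000168). Arhgap39, another Robo-binding GTPase-activating protein, fell 2.37-fold in APP (adjusted p = 0.00212) and 1.84-fold in TAU (adjusted p = 0.034). The gene called higher in TAU, named here after its value was seen, was Gpc1, at background. None of the 21 measured genes of netrin and RGM signalling was called in either group, and 7 of them were above background in at least 1 group. Over all probe sets 5.6% were called higher and 3.48% lower in APP, and 5.09% and 3.67% in TAU.

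Markers of other cells moved with some of the groups compared. The mean of 9 neutrophil markers ran from 6.92 to 8.14 in WT at 12 months, and from 6.40 to 6.53 in gated APP and 6.45 to 6.67 in gated TAU, lower in all gated samples as for Epha2, Plxna4 and Sema6d. Of these 9 markers 2 were above background in aged WT and 1 in each gated group. The mean of 10 border macrophage markers ran from 7.63 to 7.89 in WT, 7.46 to 7.75 in APP and 7.93 to 8.70 in TAU. Of these markers Ms4a7 was called in TAU, 3.56 higher than in WT (adjusted p = 1.82e-05), and without it the mean of the other 9 ran from 7.56 to 7.73 in WT and 7.46 to 8.08 in TAU. The mean of 11 astrocyte markers ran from 7.62 to 8.51 in WT, 7.54 to 8.47 in APP and 7.04 to 8.24 in TAU. Of these Gfap was called, 2.43 higher in gated APP than in WT (adjusted p = 1.31e-05) and above background in that group alone. The Y-linked mean ran from 6.06 to 7.31 in WT at 12 months, 4.16 to 7.13 in gated APP and 4.50 to 6.78 in gated TAU. With it as a covariate, Epha2 was called in both gated groups and in both tests of change with age, while Efnb1 was not called in either group and the Plxna4 and Sema6d changes with age in APP were not (adjusted p = 0.0535 and adjusted p = 0.154). With the same covariate Epha1 was called in gated APP (-0.86, adjusted p = 0.0107), and the Sema4b change with age in TAU was not (adjusted p = 0.0806). The part of these markers in the other results was not tested.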

How the data were processed

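RNA from 23 sorted microglia samples was measured on mouse expression arrays. The deposited log2 signals, 1 per probe set, are the authors' RMA values (Transcriptome Analysis Console), per the submitters' processing notes; versions and filters are not given in the sources used here. RMA subtracts background, equalises the arrays and averages probes, which compresses low signals. Genes were named from the platform annotation (19572 probe sets with 1 symbol, 2631 without, none with several).

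Here all 23 samples entered 1 limma fit (limma 3.58.1, R 4.3.3) with a mean per group, 17 residual degrees of freedom and two-sided moderated tests. P-values were adjusted (Benjamini-Hochberg) over 22203 probe sets in each of 8 contrasts. The script was tested on simulated data. No filter or further normalization was applied. Where the lower group was at background, a fold is a limit: the higher mean against the higher of background and signal in each lower sample. The members, lists and alternatives were chosen with earlier results of these data known. Named were all guidance genes above background, those called, and per pathway list up to 4 called genes with the largest change. A further pathway list is not reported here, and counts of pathway genes over all lists include it. Replicate numbers were not taken to pair samples: deviations of 55 same-numbered pairs correlated between -0.52 and 0.55, with 27 under 0.1. No pair of arrays was identical. The number of arrays limits precision (median SE 0.226).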

Additional observations from a re-analysis of the deposited data

Results flagged for a closer look

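In 90 groups of 4 samples tested over 18 guidance genes, 4 held 1 sample far from the others; chance alone gives about 1 in 20. Efnb1 was at 6.70 in gated APP replicate 1, below the other 3 samples. Plxna2 was at 5.75 in young WT replicate 3 and Plxnc1 at 8.53 in young WT replicate 2, each the low sample. Sema4g was at 10.08 in young WT replicate 3, the high sample. Young APP, with 3 samples, was not screened in this way. Its replicate 2 was at 11.57 for Efnb2, against 8.66 and 8.64, and at 11.64 for Nrp2, against 9.81 and 9.81.

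By a test of the difference between groups, the change with age differed from that of WT for Epha2 in APP (-2.49) and TAU (-2.09), for Plxna4 (-2.10) and Sema6d (-1.73) in APP, and for Sema4b in TAU (-1.13), all on the log2 scale. In the tests of change with age the older transgenic cells were gated and the young cells were not, so age and gate cannot be told apart. Plxna2 differed between the gated groups by 1.32.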

How the results depend on the processing

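The calls against WT at 12 months depended on that group's replicates 2 and 4. Leaving both out keeps only replicates 1 and 3 and widened the standard errors of the genes named here, so a call can be lost without a smaller difference. Without both, 4 guidance genes were called in gated APP in place of 8, and 3 in gated TAU in place of 6. Epha2 and Plxna4 were called in both, Plxna2 and Sema6d in APP, and Slit1, at background, in TAU. The lost calls of Efnb1 and Plxnd1 in both, and of Sema6d in TAU, came with larger differences. Those of Sema4b in both and of Nrp2 in APP came with smaller ones. For Efnb1 in APP the difference went from -0.93 ± 0.27 to -1.08 ± 0.34 (log2, SE). A fit on the 2 groups alone called 3 in gated TAU. A filter on dim probe sets left 0 called between the gated groups, since Plxna2 did not pass it. In the change with age the Y-linked mean as a covariate left 1 guidance gene in APP, in place of 3, and 1 in TAU, in place of 2. In TAU 5 were called with the filter and 6 with array weights. With the replicate number as a block 4 were called there, and 8 in gated APP and 6 in gated TAU, as without it; the genes gained were Plxna4 (-1.67, just under the threshold) and Sema6d (-1.29, adjusted p = 0.043). The block was not used because 27 of 55 same-numbered pairs correlated under 0.1, although 13 of 23 samples correlated best with their own number, a hint from the data of a shared factor. With the percentile 90 as background 28 guidance genes were above it, and with 99 there were 9.

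Leaving out each sample in turn gave 6 to 10 guidance genes in gated APP, 4 to 8 in gated TAU, 1 to 1 between the gated groups, 2 to 4 in the change with age in APP and 1 to 4 in TAU, and 0 to 0 in the young comparisons and in WT with age. It gave 15 to 19 above background, and, over all pathway lists, 15 to 18 genes in gated APP and 9 to 17 in gated TAU (9 without gated TAU replicate 1), where 15 were called in each. The 4 lists reported here hold 43, 34, 21 and 18 measured genes. Over all probe sets 5.6% were called higher and 3.48% lower in gated APP, and 5.09% and 3.67% in gated TAU. Of single guidance genes, none changed direction where called under any alternative run. Efnb1 also lost its call with arrays centred on their medians, at -0.86 in APP and -0.88 in TAU. In APP it was lost too with quantile normalization (adjusted p = 0.0502) and with array weights (adjusted p = 0.0546). Fits on the 2 groups alone lost Efnb1 in TAU (adjusted p = 0.0888). They also lost Sema4b (adjusted p = 0.0741 in APP and 0.0675 in TAU) and Plxnd1 (adjusted p = 0.0772 and 0.0624). Efnb2 in APP was called in such a fit (adjusted p = 0.0284). Epha1 in APP was called with the filter on dim probe sets (adjusted p = 0.0368) and with array weights (adjusted p = 0.046). Nrp2 in TAU was called with quantile normalization (adjusted p = 0.0412) and with the same filter (adjusted p = 0.047). Where not stated otherwise, the cause was not tested. Signal at or near background in the gated groups limits Epha2, Sema6d, Sema4b, Efnb1 and Efnb2. Plxna2 and Plxnd1 are limited by it in all groups.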
